A study of Mus musculus with 4 samples.

Results

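Of 9 genes of thyroid hormone activation and response measured in kidney, 1 was higher and 3 were lower in Th3 than in control kidneys. Of all genes tested, 10.9% were called higher and 10.6% lower. Dio1, the type 1 deiodinase, stood at 32.5% of the control level. Thrb, by its brightest probe only, and Crym were lower by much less, and Dio3 was higher by a small margin. Dio3, the 1 higher member, entered the test only through the Th3 channel, in which its signal was higher. The Crym call was kept in 8 of 18 alternative settings and the Dio3 call in 12 of 17. The other members, Dio2, Slc16a10, Thra, Thrsp and Klf9, did not pass the test. The members are the array's probes whose gene name is a deiodinase, a thyroid hormone transporter, a receptor, a hormone-binding protein or a target gene on a list of 9 symbols. They made up 16 of 41174 probes, and 15 of them entered the test among 26434 probes and 17628 genes. The list was drawn up with the Th3 over control ratios of these arrays known, Dio1 among them. The members' ratios are therefore given as a description, without p-values.

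Th3 mice model the inherited anaemia beta-thalassemia: beta-major and beta-minor, the beta-globin genes of the adult mouse, were deleted in them. RNA of 4 Th3 kidney samples was set against RNA of 4 control kidney samples on 4 two-colour oligonucleotide arrays, 1 sample of each group per array. The labels name the strains only as Th3 and control, and give no treatment and no further genotype for either group, nor the age or sex, nor whether the mutants carried 1 or 2 mutant chromosomes. Whether every sample had an animal of its own is not stated. Since the fit holds a dye term, p-values measure only the spread within pairs of arrays that share a dye orientation. That spread may be technical.

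The tissue and the libraries were checked first. The brightest probe of the deleted adult beta-globins, under the current symbol Hbb-bt, had a log2 ratio of -3.56 ± 0.48 (SD, n = 4 arrays, limma adjusted p = 2.72e-06). In a channel, 61.8% to 72.2% of the probes stood well above background, with 0 saturated spots. The log2 ratios of all genes correlated at 0.67 between arrays 1 and 2, at 0.71 between arrays 3 and 4, and at 0.43 to 0.53 across these pairs. Th3 RNA was labelled with Cy5 on arrays 1 and 2 and with Cy3 on the others, so that dye and kidneys cannot be told apart in that split. The control sample on array 4 stood apart in brown fat genes: Ucp1 had an intensity of 12686 there, against 677 to 4140 in the other control samples. Where leaving out array 4 changes the count of called genes in a list, both counts are given.

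Thyroid hormone leaves the thyroid mostly as thyroxine, T4, a prohormone. Deiodinases, which are selenoproteins, remove iodine from it: DIO1 and DIO2 can make the active hormone T3, and DIO3 inactivates both hormones. Membrane transporters bring the hormones into cells, where T3 binds nuclear receptors that sit on DNA with retinoid X receptor partners and switch target genes. Kidney proximal tubule is, with liver, a main site of DIO1, and Dio1 is itself a gene that T3 raises.

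The Dio1 gene, which had the largest difference of the set, is shown by its upstream sequence. The 250 bases before its start site lie at chr4:107307169-107307418 on the minus strand of GRCm38.p6, from RefSeq. Capitals mark the letters CAAAG, the core of sites for nuclear receptors of the HNF4 type, and CACCC, a core read by Krüppel-like factors, on either strand.
Dio1 upstream: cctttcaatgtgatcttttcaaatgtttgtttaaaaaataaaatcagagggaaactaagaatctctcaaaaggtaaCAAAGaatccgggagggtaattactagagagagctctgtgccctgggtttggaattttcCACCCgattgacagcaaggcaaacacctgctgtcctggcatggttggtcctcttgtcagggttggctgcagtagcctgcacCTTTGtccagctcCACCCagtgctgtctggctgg
HNF4A, KLF9 and GATA4 are known regulators of the mouse Dio1 promoter in liver. CAAAG began 174 and 34 bases before the start, and CACCC began 115 and 21 bases before it. Such short words are common: on either strand, CAAAG was found in 53.9% and CACCC in 57.5% of 32851 promoters of the same 300-base length, 250 before the start and 50 after it. The thyroid hormone response half-site AGGTCA was not among these letters of Dio1, and it was found in 16.3% of all promoters. As a pair spaced by 4 bases, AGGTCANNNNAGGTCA, it was found in 5 of all promoters and in none of the 8 promoters listed for 7 of the members. Of those 8, only a Thrb promoter held a single AGGTCA. Hnf4a, named here after its value was seen, stood at -0.05 ± 0.08 on the log2 scale (n = 4), which did not pass (limma adjusted p = 0.516).

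The probes of a gene did not always move together, but the Thrb and Slc16a10 probes that passed are not among those shown here. The oligonucleotides behind 4 of the members are shown as printed on the array, 5′ to 3′, since each reads only the 60 bases given. They are those of Thra, of Thrb at its most upstream position, of Thrsp and of the brighter Klf9 spot.
Thra chr11:98580418-98580477: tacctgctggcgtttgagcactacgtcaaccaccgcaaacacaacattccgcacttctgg
Thrb chr14:16775318-16775377: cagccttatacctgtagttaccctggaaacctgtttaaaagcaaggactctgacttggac
Thrsp chr7:97292244-97292303: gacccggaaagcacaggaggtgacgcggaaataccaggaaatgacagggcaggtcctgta
Klf9 chr19:23231944-23232003: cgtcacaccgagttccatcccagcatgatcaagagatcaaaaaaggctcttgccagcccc
Positions are those of the array annotation on mouse build mm8, which does not say which part of the transcript a probe lies in. Across the 16 probes, the share of G and C ran from 35.0% to 56.7%. No capitals are used in these 4 sequences.

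Among the deiodinases, Dio1 was lower, Dio3 was slightly higher and Dio2 did not pass. Dio1, read by 1 probe at chr4:106789379-106789415 (mm8, minus strand, a listed span of 37 of the probe's 60 bases), had normalised intensities of 544, 824, 849 and 894 in the Th3 samples of arrays 1 to 4, against 2453, 1993, 2585 and 2405 in the control samples. All Th3 samples lay below all control samples. The Th3 sample on array 1 was the lowest, and the other 3 lay close together. The log2 ratios were -2.17, -1.27, -1.61 and -1.43, with a mean of -1.62 ± 0.39 (SD, n = 4). On the log2 scale the Th3 samples averaged 9.58 ± 0.33 and the control samples 11.20 ± 0.16. Of the 17628 genes, 11 had a lower mean ratio. Dio1 passed under all 18 alternative settings, with a log2 ratio from -1.84 to -1.40, and without array 4 it was -1.66. In the authors' deposited table the fold was -3.28, where the minus sign stands for lower in Th3.

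In these bulk samples, fewer cells of a type and less RNA per cell cannot be told apart. Values of proximal tubule genes therefore stand beside those of Dio1. Of 22 proximal tubule markers, 4 were higher (18.2%, beside 10.9% of all genes) and 11 lower (50%, beside 10.6%) in Th3 kidneys. Without array 4, 4 were higher and 9 lower. The summed intensity of the 22 ran from 603412 to 693747 in Th3 samples and from 704735 to 796057 in control samples. The largest changes were those of Acsm2, a medium-chain acyl-CoA synthetase (log2 -0.90 ± 0.28, n = 4, limma adjusted p = 0.00308), and Gatm, which makes guanidinoacetate for creatine (-0.83 ± 0.13, adjusted p = 0.00103). Slc6a19, Slc4a4 and Slc13a1, named after their values were seen, moved up, with log2 ratios of 0.76, 0.45 and 0.49. Among 16 androgen-responsive or sex-biased tubule genes, 2 were higher (12.5%, beside 10.9% of all genes) and 11 lower (68.75%, beside 10.6%). Their summed intensities were 233943 to 284967 in Th3 samples and 477801 to 560795 in control samples. The gap between these sums is largely that of Kap, at 18124 to 37595 in Th3 samples and 201329 to 289098 in control samples. Kap, the androgen-regulated kidney protein of the proximal tubule, had the largest decrease (-3.34 ± 0.32), followed by the organic anion transporter gene Slc22a30 (-1.82 ± 0.34). Xist, transcribed from the inactive X chromosome, had intensities of 13333 to 16420 in Th3 samples and 14061 to 15867 in control samples. The part of these tubule genes in the Dio1 value was not tested.

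Dio2, which makes T3 within cells and is typical of brown fat and pituitary, was not different beyond its spread. Its probe at chr12:91130186-91130245 (mm8) had intensities of 243, 108, 108 and 126 in the Th3 samples, against 193, 113, 152 and 343 in the control samples. The control sample on array 4 was the highest and the Th3 sample on array 1 came next, and the groups overlapped. The log2 ratios were 0.33, -0.06, -0.50 and -1.45, with a mean of -0.42 ± 0.77 (n = 4). It passed without array 1 (-0.52) and without array 3 (-0.66), but not in the fit on all arrays. The ratio was -0.18 without array 4 and -0.89 from the scanner's processed signals, neither of which passed.

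Dio3, the inactivating deiodinase, was slightly higher in Th3 kidneys. Its probe at chr12:110728714-110728773 (mm8) was dim, with 121, 124, 137 and 125 in the Th3 samples against 97, 117, 105 and 107 in the control samples. The groups did not overlap, although the control sample on array 2 came close. The log2 ratio was positive on all 4 arrays, 0.31, 0.09, 0.38 and 0.22, with a mean of 0.25 ± 0.13, or 1.19-fold. The probe was well above background on 4 arrays in the Th3 channel and on 3 in the control channel. It thus entered the test through the Th3 channel only. The offset used in the background correction shrinks ratios of such dim probes: the scanner's own processed signals gave a log2 ratio of 0.98, and the authors' deposited table a 1.45-fold. The call was lost in 5 of 17 settings in which the gene was tested, among them without array 1 (0.20) and without array 3 (0.21). The level of one deiodinase is not set against that of another, since intensities of different probes are not comparable.

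**Figure D1:**
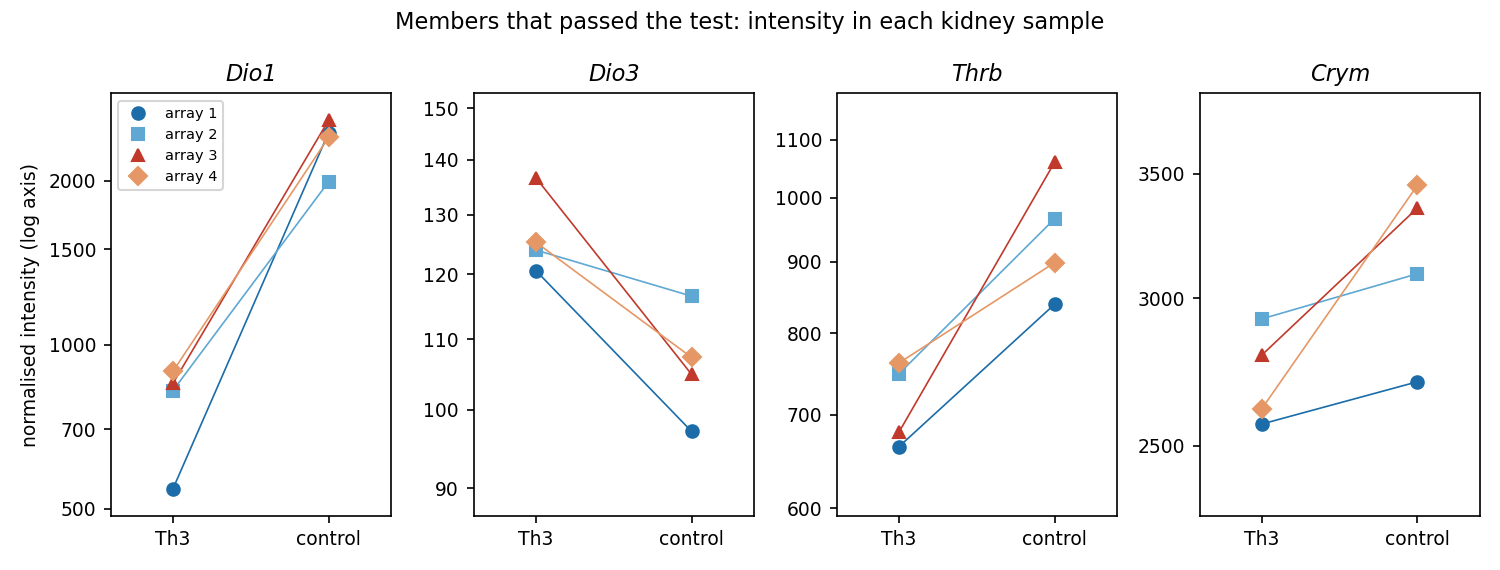
Normalised intensity (log axis, each panel with its own range) of Dio1, Dio3, the brightest Thrb probe and Crym in each Th3 sample (left) and control sample (right); lines join the samples of 1 array and each point is 1 sample. Th3 and control samples do not overlap for Dio1, Dio3 and Thrb, and they overlap for Crym.

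Slc16a10, an aromatic amino acid transporter that also carries thyroid hormones, was read by 3 probes that did not move together. The brightest, at chr10:39726090-39726149 (mm8), had 460, 577, 504 and 600 in the Th3 samples, against 541, 754, 528 and 487 in the control samples. Its groups overlapped, and its log2 ratio was -0.10 ± 0.29 (n = 4). The probe at chr10:39766187-39766246 had a ratio of 0.08 ± 0.20. The dim probe at chr10:39765336-39765395 differed: it ran from 158 to 171 in Th3 samples and from 128 to 139 in control samples, with no overlap. Its log2 ratio was 0.29 ± 0.08 and positive on all arrays, and it passed at the probe level, as the other Slc16a10 probes did not. The 60 bases of a probe read only the transcripts that hold them, and the files do not give the transcript forms.

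The receptor genes differed in which of their probes moved. Thra, the receptor gene that predominates in heart, bone and brain, had log2 ratios of -0.17, 0.45, 0.45 and 0.16 at its brightest probe (chr11:98581132-98581191, mm8), with a mean of 0.22 ± 0.30. The intensities there were 6112, 5860, 6241 and 4974 in the Th3 samples, against 6878, 4278, 4579 and 4465 in the control samples. The control sample on array 1 was the highest of all 8, and the groups overlapped. The other Thra probe, whose sequence is given above, was likewise lowest on array 1, with a mean of 0.19 ± 0.37. Neither passed, and without array 1 the brightest one did (0.38).

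Thrb, the receptor gene that mediates most of the hormone's action in liver, was lower by its brightest probe only. At chr14:16829553-16829612 (mm8) the intensities were 664, 749, 680 and 762 in the Th3 samples, against 839, 966, 1060 and 899 in the control samples. No Th3 sample reached a control sample. The log2 ratios of -0.34, -0.37, -0.64 and -0.24 gave a mean of -0.40 ± 0.17, or 76.0% of control. The probes at chr14:16830185-16830244 and chr14:16826974-16827033, which lie on either side of it in the locus, had ratios of -0.04 ± 0.06 and 0.04 ± 0.10 and did not pass. The most upstream probe, printed above, was well above background on 0 of 4 arrays in either channel and was not tested. Averaged over its tested probes, Thrb stood at -0.13 on the log2 scale without passing, which is the one alternative of 18 in which the call was lost.

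Crym encodes mu-crystallin, a cytosolic protein that binds T3. Its probe at chr7:119977605-119977664 (mm8, minus strand) had 2568, 2925, 2797 and 2617 in the Th3 samples, against 2706, 3093, 3355 and 3450 in the control samples. The Th3 sample was the lower one on each array, and the groups overlapped. The log2 ratio was -0.20 ± 0.16, or 86.8% of control. It passed in the fit on all arrays and in 8 of 18 alternatives, and in none of the 4 fits that left out 1 array (-0.24 to -0.17).

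The target genes among the members did not pass. Thrsp, the Spot 14 gene, is raised by T3 in liver and fat, where it goes with fatty acid synthesis. Its intensities were 1258, 1121, 1251 and 1395 in the Th3 samples, against 1220, 753, 1255 and 4131 in the control samples. The Th3 samples lay close together, while the control samples held both the lowest and the highest value. The log2 ratios of 0.05, 0.57, -0.01 and -1.57 gave a mean of -0.24 ± 0.92. Without array 4 the ratio was 0.15, and without array 3 it was -0.63 and passed. Klf9, a Krüppel-like factor gene that T3 raises in brain and liver, had 4163, 5912, 6619 and 5297 at its brightest probe in the Th3 samples, against 4648, 4739, 5192 and 5031 in the control samples. Its ratios of 0.15 ± 0.24 at that probe and 0.33 ± 0.31 at the other were negative on array 1 and positive on arrays 2 to 4. Klf9 passed in 0 of 18 alternatives.

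**Figure D2:**
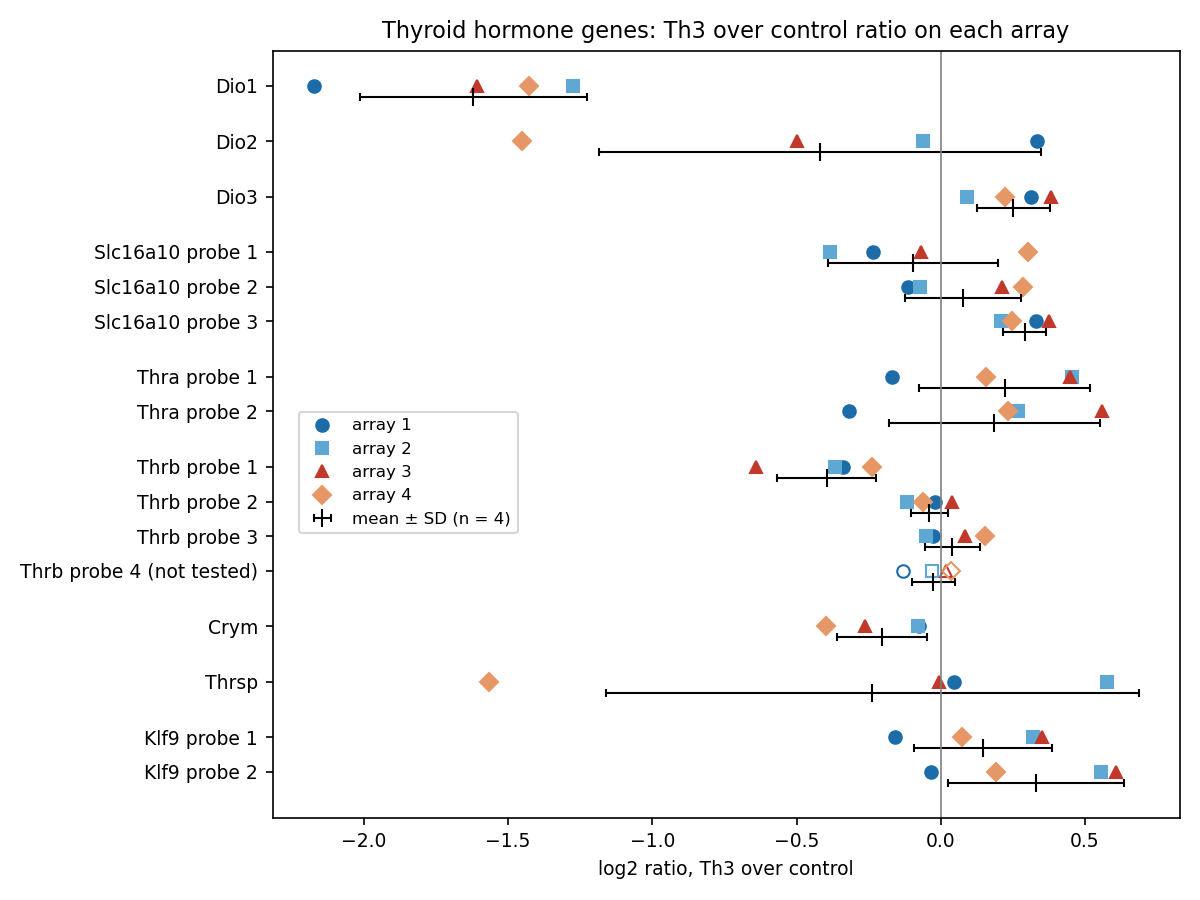
Log2 ratio of Th3 over control on each of the 4 arrays (coloured markers) for all 16 probes of the 9 genes, brightest probe of a gene first, with mean and SD in black; open markers are the probe that was not tested. Dio1 lies at -2.17 to -1.27 on all arrays, and Dio2 and Thrsp spread more widely than the other members, with array 4 the lowest point of both.

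Counted by gene, 4 of the 9 members passed the limma test at an adjusted p under 0.05, beside 21.5% of all 17628 genes. The 1 higher member stands beside 10.9% of all genes called higher, and the 3 lower members beside 10.6% called lower. The higher one, Dio3, met the background filter through the Th3 channel only. By probe, 2 were higher and 3 lower among 15, beside 18.2% of all probes called in either direction. Intensities did not overlap between Th3 and control samples for 3 members, beside 21.0% of 17605 genes with a value on every array. Without array 4, 3 members passed: Dio1, Dio3 and Thrb. Nothing is read from these counts, since the members were chosen on this contrast. A contrast that the choice did not use is the dye term, which sets arrays 1 and 2 against arrays 3 and 4: it passed for 0 of the 9 members at an adjusted p under 0.05 (limma adjusted p from 0.148 to 0.818, with 2 members, Dio2 and Slc16a10, at an unadjusted p under 0.05), beside 0.993% of all genes. With arrays centred on the median in place of loess, it passed for 6 members.

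The genes whose ratios on the 4 arrays lay nearest to those of Dio1, by Euclidean distance over the 4 log2 ratios, were Adam5, Aspg, Slc22a26, Adamts8 and Slc22a2, at distances of 0.417, 0.533, 0.739, 0.769 and 1.03. Aspg encodes an asparaginase, Adamts8 a secreted metalloprotease, Slc22a26 a transporter of the organic anion family and Slc22a2 the organic cation transporter of the proximal tubule. Their mean log2 ratios were -1.73 for Adam5, -1.603 for Aspg, -1.62 for Slc22a26, -1.36 for Adamts8 and -1.20 for Slc22a2. The scanner's processed signals gave -3.30 for Adam5 and -2.62 for Adamts8, against -1.74 for Dio1. The distances were not recomputed on those signals. Adam5, a member of the ADAM family, had the same order of arrays as Dio1, with array 1 lowest and array 2 highest, and the other 4 did not.

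Outside the members, the share of thyroid hormone genes that passed lay near that of all genes. Of 92 listed genes, 88 were on the array and 75 were tested: 7 were higher (9.33%, beside 10.9% of all genes), 10 lower (13.3%, beside 10.6%) and 58 did not pass. Without array 4, 16 passed, 8 in each direction. Their median log2 ratio was -0.02, beside 0.001 for all genes. Of 11 transporters tested, 1 was higher and 3 were lower, and 1 was lower without array 4. Slc17a4, whose human protein carries thyroid hormones, had a log2 ratio of 0.44 ± 0.10 (n = 4, limma adjusted p = 0.00414). Slco4c1, an organic anion transporter of the kidney, fell by 0.79 ± 0.54 (adjusted p = 0.00164), more on arrays 3 and 4 than on arrays 1 and 2. The dye term passed for 4 of the 11 transporters and 6 of the 75 genes, beside 0.993% of all genes. The 4 were Slco4c1, Slc7a8, Slco1a1 and Slco1a6. The ratios of Slc7a8, Slco1a1 and Slco1a6 were negative on arrays 1 and 2 and positive on arrays 3 and 4. Slco1a4 fell by 0.28 ± 0.13 (adjusted p = 0.0333), a call kept in 13 of 18 alternatives. Both Slc17a4 and Slco1a4 were dim, and the scanner's processed signals gave 1.11 and -0.78 for them. Slco4a1, named after its value was seen, passed at -0.21 ± 0.36 without having 1 sign on all arrays.

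The largest increases among these pathway genes were those of 2 conjugation genes. Sult1b1 and Sult1a1, sulfotransferases that act on iodothyronines and phenols, had log2 ratios of 0.83 ± 0.30 (n = 4, limma adjusted p = 0.00137) and 0.71 ± 0.18 (adjusted p = 0.00296). Sult1b1 ran from 731 to 870 in Th3 samples and from 359 to 622 in control samples, and the groups did not overlap. Sulfated hormones are good substrates of DIO1, as background. The other 5 conjugation and iodotyrosine genes tested did not pass. Of these, Iyd, which recovers iodide from iodotyrosines, had a ratio of 0.05 ± 0.08.

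Genes that build selenoproteins, the class to which all deiodinases belong, mostly did not pass. Of 7 synthesis genes, 1 was higher: Sephs2, which makes selenophosphate, at 0.19 ± 0.10 (n = 4, limma adjusted p = 0.0477), a call kept in 6 of 18 alternatives and lost without array 4. Of 12 other selenoproteins, 1 was lower: Txnrd2, the mitochondrial thioredoxin reductase, at -0.31 ± 0.17 (adjusted p = 0.0217), kept in 12 of 18. Without array 4 it passed too, and Selenos and Selenot, named after their values were seen, passed as higher. Selenop, the selenium carrier of plasma, and Gpx3, the plasma glutathione peroxidase made in kidney, had ratios of -0.10 ± 0.14 and 0.12 ± 0.24 and did not pass.

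Among 15 receptor partners and coregulators, 1 was lower. Rxrg, a retinoid X receptor that pairs with thyroid hormone receptors, had a log2 ratio of -0.49 ± 0.40 (n = 4, limma adjusted p = 0.00437). Rxra and Rxrb, which do the same, had ratios of 0.12 ± 0.12 and -0.16 ± 0.12 and did not pass. Nr1d1, whose gene overlaps the 3′ end of Thra on the opposite strand, was at -0.24 ± 0.56 and did not pass.

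Of 16 further genes listed here as raised by T3 in liver or kidney, 5 were lower (31.25%, beside 10.6% of all genes). Whether T3 raises each of them in these kidneys was not tested. In the other direction 1 was higher (6.25%, beside 10.9%), and the median log2 ratio was -0.13. Without array 4 the counts were the same, though not for all the same genes, and the median was -0.11. Fasn, fatty acid synthase, fell by 0.90 ± 0.56 (n = 4, limma adjusted p = 0.0141), Scd1, a fatty acid desaturase, by 0.83 ± 0.38 (adjusted p = 0.00707) and Gpd2, the mitochondrial glycerol phosphate dehydrogenase, by 0.81 ± 0.31 (adjusted p = 0.00333). Each was lower in Th3 on all 4 arrays, and on array 4 most of all. Without array 4, their log2 ratios were -0.62 for Fasn, -0.64 for Scd1 and -0.73 for Gpd2, and all passed. Me1 (malic enzyme, -0.56 ± 0.19) and Mid1ip1 (a relative of Thrsp, -0.41 ± 0.27), also named after their values were seen, passed as lower. Without array 4, Mid1ip1 did not pass, and Atp1b1, a sodium pump subunit gene, passed as lower. G6pc, glucose 6-phosphatase, was the higher one at 0.58 ± 0.56, but negative on array 2, and its dye term passed as well.

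**Figure D3:**
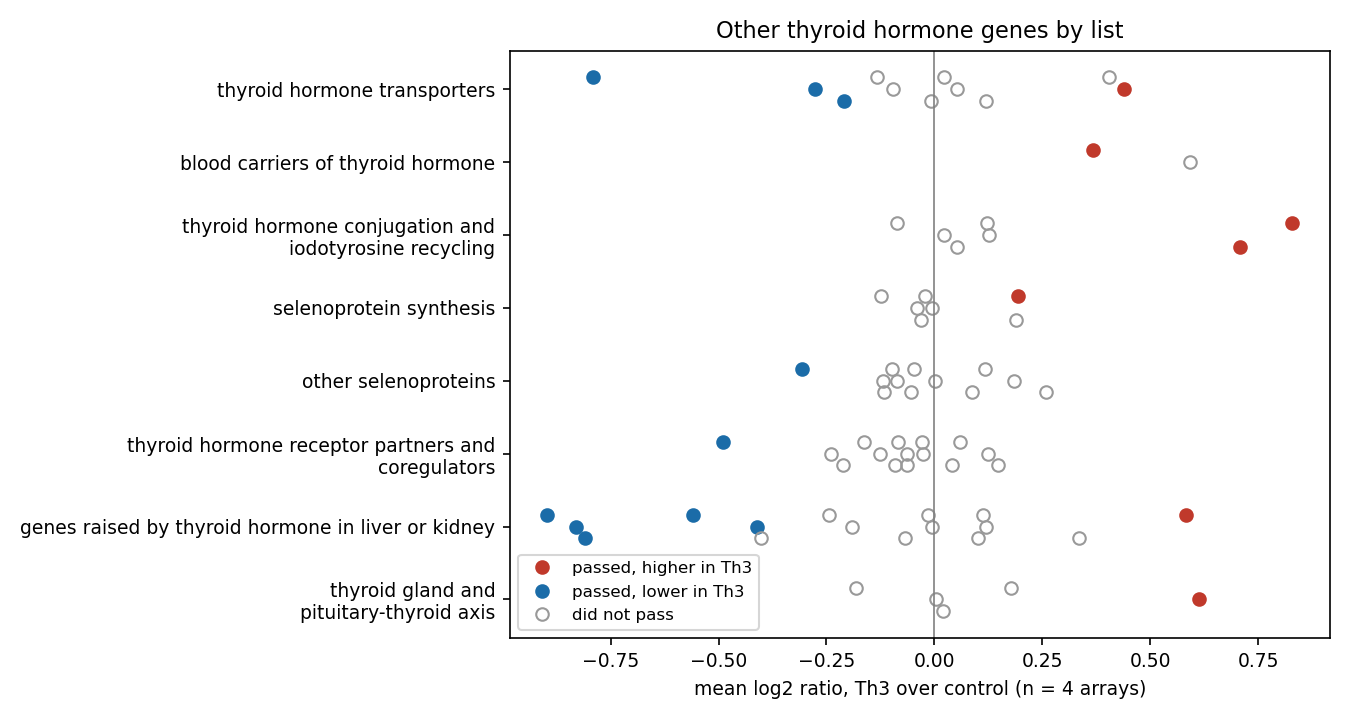
Mean log2 ratio of Th3 over control (n = 4 arrays) for the 75 tested thyroid hormone genes outside the 9 members, by list; each point is 1 gene, filled red (higher) or blue (lower) where it passed and open where it did not. Of the 10 lower calls, 5 are in the list drawn up as genes that T3 raises, which holds 16 of the 75 genes. The sulfotransferases are the 2 higher calls among conjugation genes.

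Genes of the thyroid gland and of its pituitary control were largely below the filter, with 5 of 13 tested. Duox2, a peroxide-making oxidase of thyroid and other epithelia, rose by a log2 ratio of 0.61 ± 0.33 (n = 4, limma adjusted p = 0.00844). Slc5a5, Tshb and Trh did not meet the background filter and were not tested, and Tg, thyroglobulin, stood at 0.02 without passing. Of the plasma carriers, Ttr (transthyretin) was higher at 0.37 ± 0.24 (adjusted p = 0.0392), kept in 13 of 18 alternatives, and Alb was at 0.59 ± 0.54 and did not pass. Beside them, 7 of 8 hepatocyte markers were higher (87.5%, beside 10.9% of all genes), Ttr included (4 without array 4). Their summed intensities were 6269 to 9038 in Th3 samples and 2698 to 4964 in control samples. Of the 7, Apoa1 was well above background on 4 arrays in the Th3 channel and on 2 in the control channel. Apoa1 thus entered the test through the Th3 channel only. Ahsg (fetuin-A) and Fgb (a fibrinogen chain) had the largest increases, at 1.99 ± 0.85 and 1.13 ± 0.22. Their part in the Ttr value was not tested.

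Brown fat genes, like Dio2 and Thrsp, were highest in the control sample on array 4 (Ucp1, Cidea and Cox8b). Of 6 brown adipocyte markers tested other than Dio2, 3 were lower in Th3 (2 without array 4) and none was higher, with summed intensities of 13175 to 19549 in Th3 samples and 14488 to 52451 in control samples. Ucp1, the uncoupling protein of brown fat, had 256, 168, 185 and 908 in the Th3 samples, against 4140, 677, 2534 and 12686 in the control samples, a log2 ratio of -3.40 ± 0.93 (n = 4, limma adjusted p = 0.00156). Cidea, a lipid droplet protein, had 4974, 1385, 1558 and 3967 in the Th3 samples, against 8227, 1399, 4344 and 18564 in the control samples. The control sample on array 4 was the highest of all 8 for Ucp1, Cidea, Dio2, Thrsp and Fasn. Cox8b, a cytochrome oxidase subunit of brown fat, was at -1.23 ± 0.91 (adjusted p = 0.0234), and without array 4 at -1.01, which did not pass. Within the Th3 samples, Dio2 and Cidea were highest on array 1, and Ucp1 and Cox8b on array 4.

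Most general adipocyte markers did not pass. Among the control samples, that of array 4 was the highest for each of those tested except Lpl. Of 11 adipocyte markers, 2 were higher and none was lower in Th3, and 7 were higher without array 4. The sums over the 10 with a value on every array ran from 106052 to 139475 in Th3 samples and from 57011 to 141162 in control samples. Adipoq, the adipocyte hormone adiponectin, had 4578, 3219, 3448 and 2300 in the Th3 samples, against 1877, 873, 1393 and 3181 in the control samples. Its ratio of 1.00 ± 1.02 (n = 4, limma adjusted p = 0.0408) was negative on array 4, and the call was kept in 13 of 18 alternatives. Cfd, adipsin, was at 1.07 ± 1.24 and did not pass. The part of fat genes in the values of Dio2, Thrsp, Fasn and Scd1 was not tested.

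**Figure D4:**
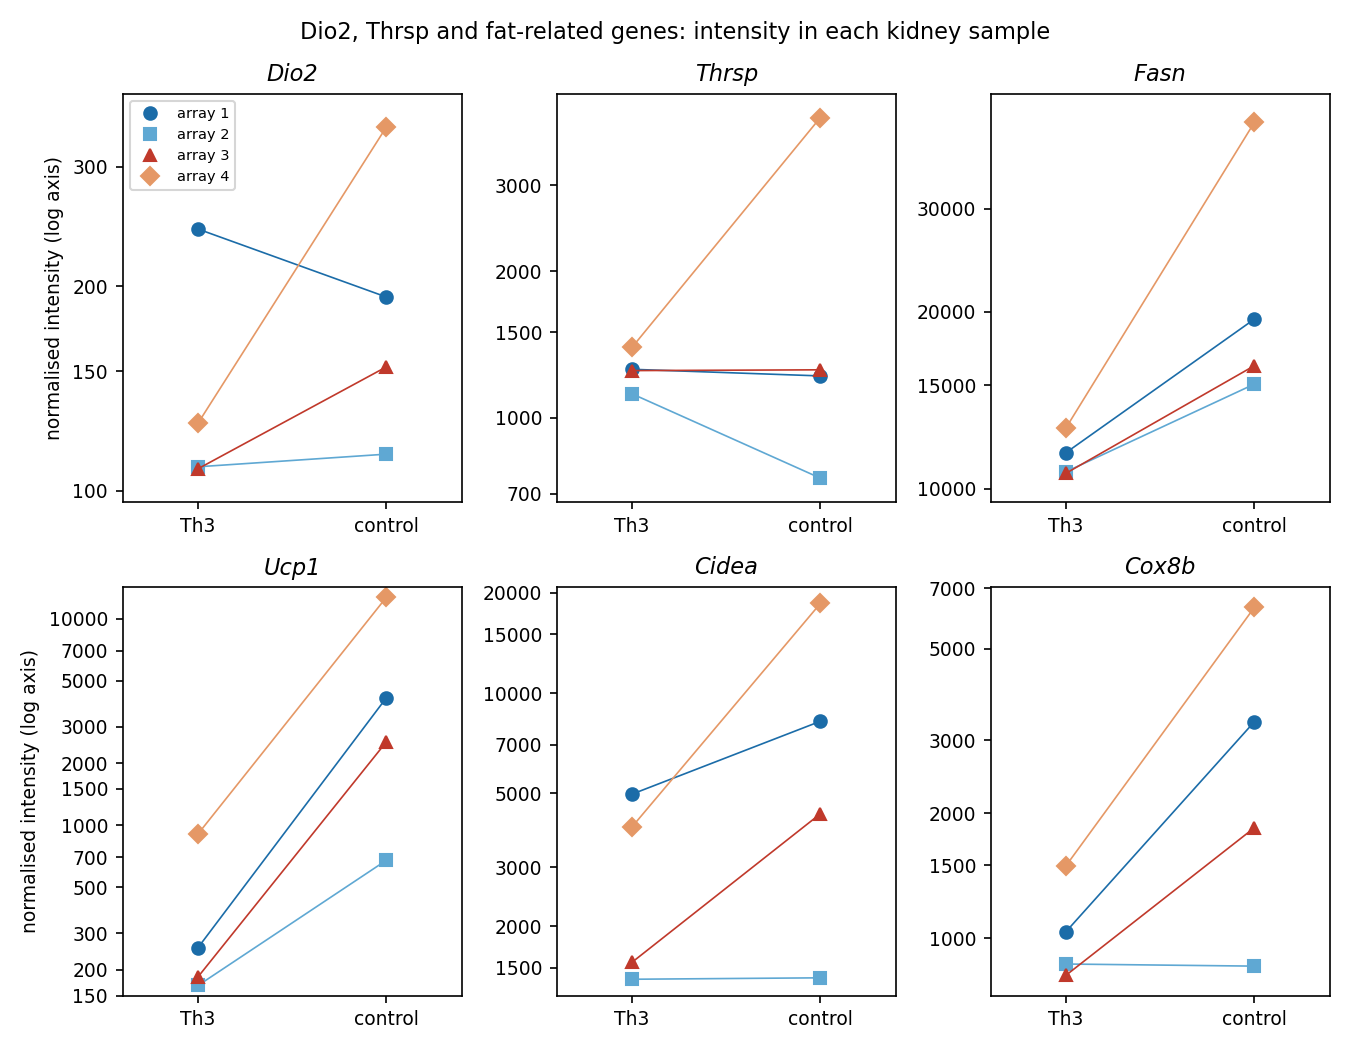
Normalised intensity (log axis, each panel with its own range) of Dio2, Thrsp, Fasn, Ucp1, Cidea and Cox8b in each Th3 sample (left) and control sample (right), with lines joining the samples of 1 array. The control sample on array 4 is the highest point in all 6 panels.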

How the data were processed

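Two-colour signals of 4 arrays were read, and dye and group were taken from the labels. Spot intensities and local backgrounds, processed intensities, flags and a log10 ratio of Cy5 over Cy3 were deposited by the authors from Agilent Feature Extraction 9.5.3.1, per the file headers. In a combined table, the authors also deposited log2 ratios per array, a signed fold as a score and an adjusted p-value. The sources used here do not say how those were made.

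With R 4.3.3, limma 3.58.1 and data.table in version 1.17.8, mean signals were corrected by normexp (offset 50) and normalised within arrays by loess (span 0.3, 4 iterations), control and outlier spots at weight 0. Outlier spots (at most 186 on an array) were then set to missing. A probe was kept if well above background on all 4 arrays of 1 side, with values on at least 3 arrays. Each gene was represented by its brightest kept probe. Log2 ratios were fitted with a Th3 term and a dye term (lmFit, eBayes). Calls are Benjamini-Hochberg adjusted p-values under 0.05 over all 17628 genes, or over all probes for probe calls. Ratios are Th3 over control, and ± is the SD over arrays, which unlike the p-values also holds the spread between the pairs of arrays. Intensities are per channel after between-array scaling (Aquantile). The fit was tested on simulated data with noise drawn independently for each array. That test cannot show how calls hold where the arrays of a pair vary together.

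Gene names came from RefSeq (GRCm38.p6). Of the probes, 23374 matched on accession, 6733 on symbol and 2919 on a synonym, while 8148 stayed as the files name them. The rule for named genes took every member, the called pathway genes with 1 sign on all arrays (up to 3 per list and direction, or the smallest p), the 5 genes nearest to Dio1, up to 2 largest changes per marker list and the deleted globins. The members and lists were chosen with earlier results of these data known. Alternatives changed background, normalisation, filter, dye term, weights, probe rule or arrays used, 18 in all. Some genes of the lists are counted but not reported here by name.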

Additional observations from a re-analysis of the deposited data

Results flagged for a closer look

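Of 54 genes and probes set against Dixon's limit for a value far from the others, which chance exceeds in about 1 of 20 groups, 1 exceeded it. The log2 ratio of Ucp1 on array 2, -2.01, lay apart from the -4.02, -3.78 and -3.80 of arrays 1, 3 and 4. Both samples of array 2 had the lowest Ucp1 intensity of their group, 168 for Th3 and 677 for control. Ucp1 passed in all 18 alternatives, with a log2 ratio from -4.06 to -2.90.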

How the results depend on the processing

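The fit is on ratios within arrays, so each Th3 sample is already paired with 1 control sample. Of all genes, 3793 were called (1927 higher, 1866 lower); 1990 were called without a dye term, 1199 where the 2 pairs of arrays formed a random block and 5757 with separate channels. Median centring called 3082, of which 1938 were higher and 1144 lower. Members called, 4, came to 2 (Dio1 and Thrb) with median centring, without a dye term and with the random block. Pathway genes called, 17, came to 9 without a dye term and 7 with the random block. The dye term of members, 0, came to 6 with median centring. The causes were not tested. Leaving out each array in turn, with 1 residual degree of freedom left, gave 2571 to 3190 genes, 3 to 4 members, 12 to 17 pathway genes, 0 to 1 dye-term members and a Dio1 log2 ratio of -1.84 to -1.40. The 1 dye-term call came without array 2. No result changed sign while passing under any of the 18 alternatives. Signal over background limits Dio3, Slc17a4, Slco1a4, Adam5, Adamts8, Ccr2, Eif2s3y, Apoa1, the dim Slc16a10 probe and the upstream Thrb probe.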

Other observations

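Most immune cell genes tested, which belong to none of the comparisons above, were called lower in Th3 kidneys, beside 10.6% of all genes. Of 9 macrophage markers 7 were lower (6 without array 4) and none higher. They were led by Ccr2, a chemokine receptor of monocytes (log2 -0.96 ± 0.48, n = 4, limma adjusted p = 0.000436, and -1.51 from the scanner's processed signals), and Lyz2, lysozyme, whose ratio of -0.64 ± 1.11 was positive on arrays 1 and 2. Of 8 lymphocyte markers 6 were lower, led by the antibody genes Jchain (-2.10 ± 1.42) and Ighm (-1.11 ± 0.61). Both fell by more on arrays 3 and 4 than on arrays 1 and 2. On arrays 1 to 4, the median log2 ratio was -0.01, -0.20, -0.61 and -0.83 for macrophage markers. For lymphocyte markers it was -0.13, -0.10, -0.99 and -0.59. The dye term passed for 3 macrophage and 2 lymphocyte markers.

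Of 10 markers of the loop of Henle and distal tubule, 2 were lower: Klk1, tissue kallikrein, at -0.76 ± 0.20 and Pvalb, parvalbumin, at -0.45 ± 0.22. Of 10 collecting duct markers, 1 was higher: Aqp3, a basolateral water channel, at 0.69 ± 0.15. Without array 4, 3 were higher: Aqp2, Aqp3 and Slc4a1. On all arrays Slc4a1, the anion exchanger of red cells and intercalated cells, was at 0.35 ± 0.27 and Aqp2, the apical water channel, at 0.11, and neither passed. Of the Y-linked genes only Eif2s3y was tested. Its probe was well above background on 4 arrays in the Th3 channel and on 0 in the control channel. It entered the test only through the Th3 side, so its values are given as a description, without a p-value. They ran from 101 to 125 in Th3 samples and from 70 to 104 in control samples, close to background. The control signal on each array was raised to that of the dimmest detected probe where it lay below it. Th3 was then at least 1.27-fold higher. Ddx3y, Kdm5d and Uty were not tested, Xist was bright in both groups as given above, and the labels do not give the sex.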
